A study of Mus musculus with 15 samples.

Results

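Bone morphogenetic proteins (BMPs) are secreted signals of the TGF-beta superfamily, and their antagonists are secreted proteins that bind them outside the cell and keep them from their receptors. The genes described here are 6 BMP ligand genes (Bmp2, Bmp3, Bmp4, Bmp5, Bmp6 and Bmp7) and 4 antagonist genes (Nog, Chrd, Grem1 and Fst), 10 of the 54232 genes in the deposited count table. They were chosen by name, and each symbol matched 1 row of that table. RNA was sequenced from palates of wild-type mice at embryonic day (E) 13.5, 14.5, 15.5 and 16.5 and on the day of birth (P0). Each stage had 3 libraries, and each library came from the pooled palatal shelves of 3 embryos. All groups share the wild-type genotype, and the labels name no strain and no treatment. Litters are not named, so the p values below measure only the spread between these pools, and a pool hides the spread among its embryos.

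A BMP dimer binds a complex of type I and type II receptors. The type I receptor then phosphorylates SMAD1, SMAD5 or SMAD9, which enter the nucleus with SMAD4 and switch on targets such as the Id and Msx genes. In the palate, BMP signals pass between the epithelium and the mesenchyme of the shelves, act with Msx1 in the growth of the anterior shelf, and later take part in making palatal bone. Mice without noggin have a cleft palate.

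Libraries held 21470759 to 69019565 counts, and mitochondrial genes took 1.49% to 2.83% of them. The lowest count of any of the 10 genes in any library was 93, for Grem1 in the third P0 library, so each was measured well above 3 counts, the level taken as the detection floor, and all 10 passed the filter on low counts. The tissue label held against its defining markers: all 7 palate mesenchyme markers were tested, with medians over the 15 libraries from 3.92 CPM for Tbx22 to 221 CPM for Prrx1, where CPM are counts scaled to one common library total after TMM, a correction for differences in RNA makeup. The first E14.5 library had the highest neuron marker sum, 2536 CPM against 1088 and 1759 CPM in the others of its stage. Its choroid plexus and brain markers summed to 1326 CPM, against 724 and 20.8 CPM in those libraries, in the same order. Brain marker RNA was therefore not confined to 1 library of that stage. Y-linked protein-coding genes took at most 0.000338% of counts in the E16.5 libraries and from 0.000295% to 0.0205% elsewhere. All 10 genes lie on autosomes.

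The ligands fall into sequence families. Bmp5, Bmp6 and Bmp7 form one subfamily, Bmp2 and Bmp4 another, and Bmp3 stands alone. Among the 45 pairs of these genes, the longest run of identical bases between coding sequences was 25, between Bmp6 and Bmp7, and the pair with the longest run over whole transcripts, Bmp3 and Bmp4, shared 47. The longest coding runs of the Bmp5, Bmp6 and Bmp7 pairs are shown, 5′ to 3′. Only a read lying wholly within such a run would match both genes, and read length was not examined.
Bmp6 and Bmp7: cccttcatggtggccttcttcaagg
Bmp5 and Bmp7: ttcatggtggccttcttcaaggc
Bmp5 and Bmp6: ctgggatggcaggactggatcat
The Bmp6 and Bmp7 run and the Bmp5 and Bmp7 run overlap, so all 3 genes share a core there. Among the coding runs, next came Bmp4 and Fst with 17 bases and Bmp2 and Bmp4 with 15.

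RefSeq promoters, taken from 250 bases before to 50 bases after a gene's start on GRCm38.p6, were given for 5 of the 10 genes: Bmp4, Bmp5, Bmp6, Chrd and Grem1. Bmp2, Bmp3, Bmp7, Nog and Fst were not in that table. Those of Bmp6 and Bmp4 are printed because these ligands took different courses below: Bmp6 was higher at P0 than at E13.5, and Bmp4 had stage means of 29.2 CPM at P0 and 29.3 CPM at E13.5. The Bmp6 stretch lies inside the span of that gene in the count table, which begins at 38345107. RefSeq and the count table thus place the start of Bmp6 differently. Capitals mark the GC box, GGGCGG on either strand.
Bmp6, chr13:38345466-38345765, plus strand: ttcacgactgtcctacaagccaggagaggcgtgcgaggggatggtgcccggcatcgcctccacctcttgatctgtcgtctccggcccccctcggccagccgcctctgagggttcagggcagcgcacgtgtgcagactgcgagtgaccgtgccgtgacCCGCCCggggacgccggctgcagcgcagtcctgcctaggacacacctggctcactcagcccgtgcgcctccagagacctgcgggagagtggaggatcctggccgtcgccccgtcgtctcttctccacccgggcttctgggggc
Bmp4, chr14:46390620-46390919, minus strand: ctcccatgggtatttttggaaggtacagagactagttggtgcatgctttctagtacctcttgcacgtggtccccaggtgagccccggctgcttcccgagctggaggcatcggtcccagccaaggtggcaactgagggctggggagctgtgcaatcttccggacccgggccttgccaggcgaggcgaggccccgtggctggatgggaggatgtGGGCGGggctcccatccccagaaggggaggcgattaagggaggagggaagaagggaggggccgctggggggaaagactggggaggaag
Each holds 1 GC box, and 35.7% of the 32851 mouse promoters of the same length hold at least 1. Of the other promoters, Grem1 holds 3 GC boxes, Chrd 4 and Bmp5 none. The letters GGCGCC, a GC-rich element that BMP SMADs can bind, were found on either strand in the promoters of Chrd and Grem1, 1 match each, and in 11.9% of all promoters. GC content was 43.3% for Bmp5 and 64% to 78.3% for the other 4. A match of letters is a description and was not tied to binding, which was not measured.

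**Figure D1:**
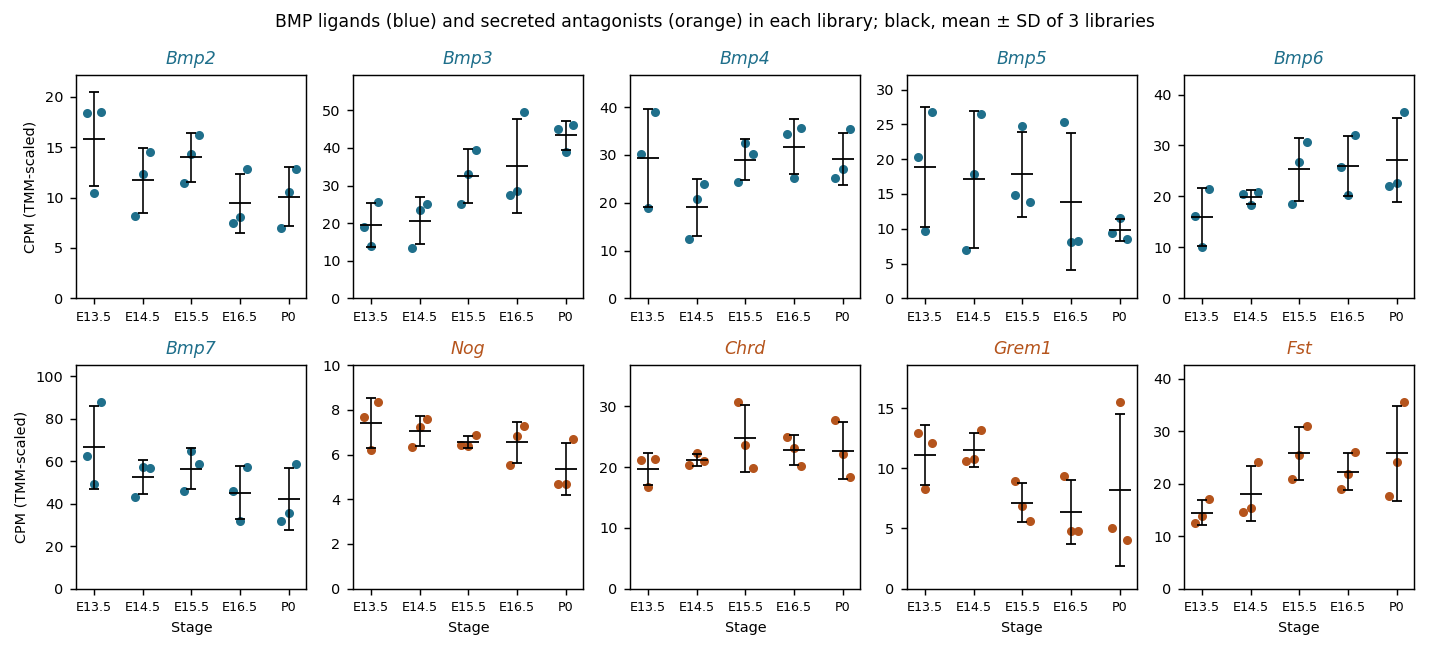
CPM (TMM-scaled, linear axis from 0) of each gene in every library (points) by stage, with the mean and SD of 3 libraries in black. Bmp3, Bmp6 and Fst have P0 libraries that all lie above the E13.5 libraries, and most other stages overlap.

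Few of these genes changed across the 5 stages by the test. By edgeR's F test over the 5 stages, 1 of the 10 genes (Bmp3) passed the adjusted p threshold of 0.05, against 59.1% of the 22151 genes tested. No gene of the 10 passed between neighbouring stages, whereas 3 passed between the ends of the series, P0 against E13.5: Bmp3, Bmp6 and Fst, all higher at P0. On the log2 CPM scale, the distance from the lowest to the highest stage mean had a median of 0.78 over the 10 genes, from 0.31 for Chrd to 1.19 for Bmp3, against a median of 1.11 over all tested genes. With replicate number added to the fit as a block, 3 of the 10 passed across the 5 stages, beside 13151 of all genes. That fit called 1 of the 10 in E15.5 against E14.5, beside 5860 genes, and 6 in P0 against E13.5, beside 12595. These are descriptions of a list chosen by name, and the difference from all genes was not tested.

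Per unit of transcript length, Bmp7 and Bmp4 were the most abundant of the 10. In TPM, a count divided by exon length and scaled to the same total in each library, computed from the counts and the exon lengths in the table, the mean level over 15 libraries was 44.9 for Bmp7 and 41.2 for Bmp4. The other ligands had mean levels from 11.8 TPM (Bmp2) to 19.5 TPM (Bmp6). The antagonists were between 7.22 TPM (Grem1) and 15.5 TPM (Fst). Nog, at 13.3 TPM, stood above Chrd and Grem1 per length, with 1695 bases of exon the shortest of the 10.

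Bmp2 and Bmp4 are the closely related ligands best known for starting bone and tooth formation, and neither passed the test in any comparison. Bmp4, on chromosome 14 (46383520 to 46390669, minus strand), measured 30.2, 18.8 and 39.0 CPM at E13.5, 12.4, 20.7 and 24.0 CPM at E14.5, and 24.3, 32.5 and 30.2 CPM at E15.5. It measured 34.3, 25.1 and 35.7 CPM at E16.5 and 25.2, 27.1 and 35.4 CPM at P0. The E14.5 libraries were the low point: all 3 lay below all 3 of E15.5, and this was the only pair of adjacent ranks, among the stage means of all 10 genes, whose libraries did not overlap. The log2 fold change of E15.5 against E14.5 was 0.61 (SE 0.29, adjusted p = 0.131), and that of E14.5 against E13.5 was -0.63 (SE 0.29, unadjusted p = 0.0476, adjusted p = 0.307), so the dip did not pass the test. Between P0 and E13.5 the log2 difference was -0.00, with a 95% interval from -0.62 to 0.61, while the TPM means were 37.1 at P0 and 48.8 at E13.5. Choroid plexus and brain markers summed to 1326, 20.8 and 724 CPM in the E14.5 libraries with 12.4, 20.7 and 24.0 CPM of Bmp4. The lowest Bmp4 value of all, 12.4 CPM, was in the first E14.5 library, which had the most neuron marker RNA. Without that library the E15.5 to E14.5 difference was 0.37 (adjusted p = 0.420), and the part of the other tissue in the dip was not tested.

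Bmp2, on chromosome 2 (133552159 to 133562885, plus strand), was highest at E13.5, with a mean of 15.8 CPM ± 4.64 (SD, n = 3), and lowest at E16.5, with 9.44 CPM ± 2.91 (SD, n = 3). Its values ran from 6.96 to 18.5 CPM over the 15 libraries, and every pair of neighbouring stages overlapped. P0 was lower than E13.5 by a log2 difference of -0.65 (SE 0.31, 95% interval -1.33 to 0.03), which did not pass (adjusted p = 0.0955). Without the second E13.5 library it was -0.88 (adjusted p = 0.0381).

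Bmp5, Bmp6 and Bmp7 belong to one subfamily of ligands, active in cartilage, bone and kidney development. The stage means of Bmp5 and Bmp7 stood in the same order, lowest at P0 and highest at E13.5, and those of Bmp6 in the order of developmental time. Bmp6, on chromosome 13 (38345107 to 38500302, plus strand), measured 16.1, 10.1 and 21.5 CPM at E13.5 and 20.4, 18.3 and 20.9 CPM at E14.5. It measured 18.5, 26.8 and 30.7 CPM at E15.5, 25.7, 20.3 and 32.0 CPM at E16.5, and 22.0, 22.7 and 36.6 CPM at P0. No neighbouring pair of stages was free of overlap. P0 exceeded E13.5 by a log2 fold change of 0.77 (SE 0.29, adjusted p = 0.0387), and the 3 P0 libraries lay above the 3 of E13.5, the closest pair being 22.0 and 21.5 CPM. This call was fragile: it passed in 8 of 15 fits that each left out 1 library, with the highest adjusted p, 0.163, without the third P0 library and 0.152 without the second E13.5 library. The other libraries whose removal ended it were the first E13.5 library (0.0852), each of the 3 E14.5 libraries and the second E15.5 library. It also missed the threshold in the 6 libraries of the contrast alone (0.0943) and with no filter on low counts (0.0552). The 4 tooth markers tested summed to 1.18 to 2.18 CPM at E13.5 and 74.0 to 180.1 CPM at P0, and they put the libraries in the same order as Bmp6 at each stage except P0. Dmp1, among these 4, also stands in the osteoblast list, so the sum is not of tooth tissue alone. At E14.5 the sum was 1.88 to 2.47 CPM, so the orders at E13.5 and E14.5 rest on small differences. The match was also picked out of 130 pairs. The part of tooth or bone tissue in the Bmp6 difference was not tested.

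Bmp7, on chromosome 2 (172868012 to 172940321, minus strand), measured 62.6, 49.1 and 87.8 CPM at E13.5 and 32.0, 35.6 and 58.7 CPM at P0. The stage means ran from 66.5 CPM ± 19.6 (SD, n = 3) at E13.5 to 42.1 CPM ± 14.5 (SD, n = 3) at P0. One P0 library, the third, lay within the E13.5 range. The log2 fold change was -0.66 (SE 0.28, adjusted p = 0.0613) and did not pass. Without that library it was -0.95 (adjusted p = 0.0159), and it also passed without the second E13.5 library (-0.84, adjusted p = 0.0338) and without the second E16.5 library (-0.67, adjusted p = 0.0469).

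Bmp5, on chromosome 9 (75775364 to 75900310, plus strand), had the widest standard errors of the 6 ligands. Its values were 20.3, 9.68 and 26.8 CPM at E13.5, 6.90, 17.9 and 26.5 CPM at E14.5, and 14.8, 24.8 and 13.9 CPM at E15.5. At E16.5 they were 25.3, 8.16 and 8.17 CPM, and at P0 9.32, 11.6 and 8.58 CPM. The P0 libraries were close together, while those of E13.5, E14.5 and E16.5 lay far apart. Cartilage markers put the libraries of these 3 stages in the same order as Bmp5, and not those of E15.5 and P0: at E16.5 they summed to 1566, 413 and 531 CPM, and at E14.5 to 422, 2179 and 2734 CPM. The P0 to E13.5 difference was -0.94 (SE 0.54, adjusted p = 0.154) and did not pass. The cartilage match was picked out of 130 pairs, and the part of cartilage in the sampled tissue was not tested. In bulk tissue, fewer cells of a type and less RNA per cell cannot be told apart. The span of an uncharacterised gene, Gm47723, overlaps that of Bmp5 on the same strand. Whether their exons overlap, and whether Bmp5 fragments were left uncounted for that reason, was not examined.

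Bmp3 encodes an atypical BMP, abundant in bone, that is known to oppose signalling by other BMPs, and it made the largest change among the 10. Located on chromosome 5 (98854415 to 98884396, plus strand), it measured 19, 13.9 and 25.5 CPM at E13.5, 13.4, 23.6 and 25.1 CPM at E14.5, and 25.0, 33.0 and 39.4 CPM at E15.5. It measured 27.6, 28.6 and 49.6 CPM at E16.5 and 45.1, 38.9 and 46.0 CPM at P0. Stage means stood in the order of developmental time, and the lowest P0 library was above the highest E13.5 library. P0 was 2.23-fold E13.5 by stage means, with a log2 fold change of 1.15 (SE 0.30, adjusted p = 0.00602), and the F test over the 5 stages gave an adjusted p of 0.0177. Both calls passed in 15 of 15 fits that each left out 1 library. E15.5 against E14.5 was the nearest of the neighbouring steps to the threshold, at 0.65 (95% interval 0.00 to 1.30, adjusted p = 0.125). The 9 osteoblast markers, all tested, had sums of 1292 to 1977 CPM in E13.5 libraries and 1027 to 2214 CPM in E14.5 libraries. From E15.5 on these sums were 14194 CPM or more, and P0 libraries held 18274 to 35309.6 CPM. The part of osteoblast number in the Bmp3 rise was not tested.

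Noggin and chordin are antagonists first known from the embryonic organizer, and both hold BMPs in inactive complexes. Nog, on chromosome 11 (89300638 to 89302332, minus strand), measured 7.67, 6.18 and 8.35 CPM at E13.5 and 4.69, 4.70 and 6.71 CPM at P0. The stage means fell in the order of time, by small steps that all overlapped, and the fold change over the whole span, -0.47 (SE 0.19, adjusted p = 0.0551), did not pass in edgeR. It passed by DESeq2 at -0.46 (adjusted p = 0.0224), and in edgeR without the second E13.5 library (-0.59, adjusted p = 0.0352) or the third P0 library (-0.63, adjusted p = 0.0168). Chrd, on chromosome 16 (20733127 to 20742384, plus strand), had the smallest range of stage means among the 10. It ran from 19.7 CPM ± 2.64 (SD, n = 3) at E13.5 to 24.7 CPM ± 5.51 (SD, n = 3) at E15.5, a 1.25-fold span, and 5.53% of all tested genes had a smaller range of stage means in log2 CPM. P0 against E13.5 gave 0.21 (95% interval -0.20 to 0.61, adjusted p = 0.363).

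Gremlin 1, best known as the antagonist that links BMP to Hedgehog signals in the limb bud, rested on single libraries. Grem1, on chromosome 2 (113746164 to 113758646, minus strand), measured 12.9, 8.27 and 12.1 CPM at E13.5, 10.6, 10.8 and 13.2 CPM at E14.5, and 8.90, 6.87 and 5.65 CPM at E15.5. It measured 9.39, 4.76 and 4.82 CPM at E16.5 and 5.02, 15.5 and 4.05 CPM at P0. All E15.5 libraries were below all E14.5 libraries, yet the log2 fold change of -0.69 (SE 0.44) did not pass (adjusted p = 0.265). The second P0 library held the highest Grem1 value of the series, and the other P0 libraries were among the 4 lowest. With it, P0 against E13.5 was -0.43 (adjusted p = 0.417), and without it -1.27 (adjusted p = 0.00947). That library also had the highest share of mitochondrial counts, 2.83%, the highest endothelial marker sum of its stage, 550.2 CPM against 435 and 325 CPM, and the highest choroid plexus and brain sum of its stage, 372 CPM. Their part in its Grem1 level was not tested.

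Follistatin binds activins most tightly and BMPs, BMP7 among them, less so. Fst, on chromosome 13 (114452290 to 114458951, minus strand), measured 12.5, 13.8 and 17.1 CPM at E13.5, 14.7, 15.3 and 24.2 CPM at E14.5, and 20.9, 25.5 and 31.1 CPM at E15.5. It measured 19, 21.8 and 26.0 CPM at E16.5 and 17.6, 24.1 and 35.6 CPM at P0. All P0 libraries lay above all E13.5 libraries, narrowly at 17.6 against 17.1 CPM. The log2 fold change of P0 against E13.5 was 0.83 (SE 0.27, adjusted p = 0.0199), and the F test over the 5 stages did not pass (adjusted p = 0.0670). That test did pass by DESeq2 (0.0224), at a mean of at least 1 CPM (0.0464), after thinning all libraries to the smallest total (0.0415), and without the third E14.5 library (0.0307) or the first P0 library (0.0214). The P0 call held in 12 of 15 fits that left out 1 library and was lost without the first E13.5 library (adjusted p = 0.0764), the second (0.0609) or the third P0 library (0.0984). At P0 the 7 markers of stratified oral epithelium summed to 975, 3029 and 5234 CPM in the libraries with 17.6, 24.1 and 35.6 CPM of Fst, and at E13.5 to 96.6, 127 and 316 CPM in those with 12.5, 13.8 and 17.1 CPM. The order of the 3 libraries was the same for Fst and these markers at 5 of 5 stages, a match picked out of 130 pairs. The part of epithelium in the Fst difference was not tested.

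**Figure D2:**
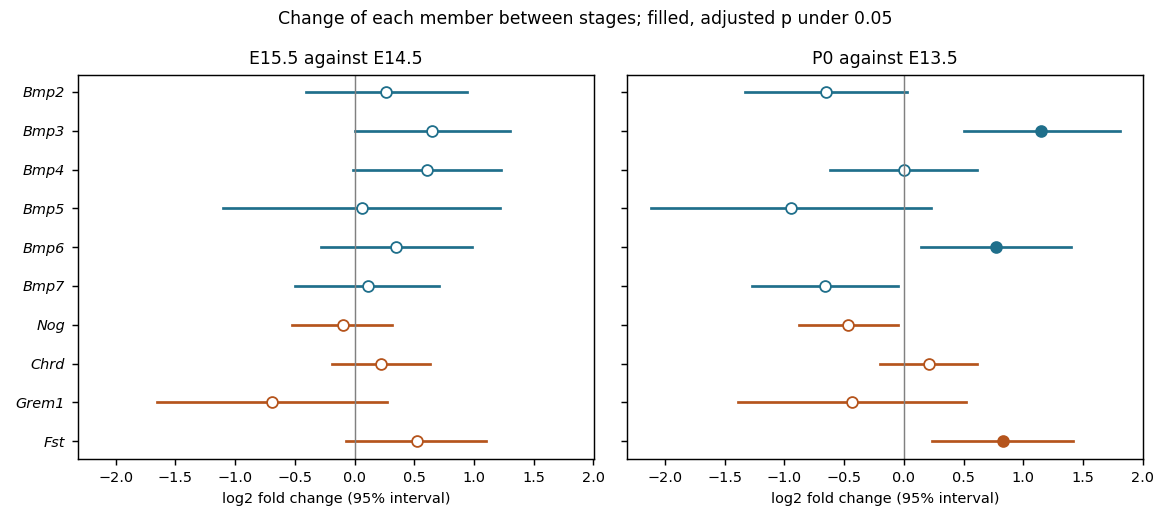
Log2 fold change of each gene with its 95% interval, for E15.5 against E14.5 (left) and P0 against E13.5 (right), with ligands in blue and antagonists in orange. No point is filled on the left, and Bmp3 (1.15), Bmp6 (0.77) and Fst (0.83) are filled, meaning an adjusted p under 0.05, on the right.

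The step from E14.5 to E15.5, when the shelves fuse and bone appears, changed much of the transcriptome and none of the 10 genes by the test. For E15.5 against E14.5, 0 of the 10 passed, against 26.1% of all tested genes, and the median absolute log2 fold change was 0.31 for the 10 against 0.46 for all. Without adjustment 1 of the 10, Bmp3, had p under 0.05, against 39.7% of all genes. Bmp4 was the one whose libraries did not overlap and were higher, against 24.0% of all genes, and Grem1 the one with no overlap and lower, against 27.2%. The other neighbouring steps called fewer genes in edgeR. For E14.5 against E13.5, 0 of the 10 passed against 0.00903% of all genes, with 1 (Bmp4) and 16% at an unadjusted p under 0.05. For E16.5 against E15.5, 0 passed against 1.41%, with 0 and 21.8% unadjusted, and for P0 against E16.5, 0 passed against 0.352%, with 0 and 11.7% unadjusted. DESeq2 also called 0 of the 10 in each of these 4 steps, while over all genes it called 1000 in E14.5 against E13.5, 7208 in E15.5 against E14.5, 2094 in E16.5 against E15.5 and 663 in P0 against E16.5. Neighbouring steps share a stage, so they are not independent of one another.

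Over the whole span, 3 of the 10 passed in P0 against E13.5 against 56.6% of all tested genes. The 3 were higher, against 29.8% of all genes called higher, and 0 were lower, against 26.8%. The same 3 were the ones whose P0 libraries all exceeded the E13.5 libraries, against 30.2% of all genes, and 0 lay wholly below, against 28.9%. Without adjustment 5 of the 10 had p under 0.05, against 61.7% of all genes. The median absolute log2 fold change was 0.65 for the 10 and 0.83 for all genes. The share of the 10 called was below the background over both directions and near it for rises alone.

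Summed by role, the RNA of the 6 ligands exceeded that of the 4 antagonists in every library. Other ligands and antagonists were left out of these sums, so the ratio holds for the listed genes alone. Among those left out, the antagonist Fstl1 had a mean of 926 CPM at E13.5 and the ligand Gdf10 one of 91.3 CPM. Bmp3 was counted as a ligand, although it is known to oppose other BMPs. The 6 ligands together gave 169.9 TPM ± 51.8 (SD, n = 3) at E13.5 and 133 TPM ± 33.3 (SD, n = 3) at E14.5. Their sum was 169 TPM ± 32.7 (SD, n = 3) in E15.5 palates, 129.6 TPM ± 33.4 (SD, n = 3) in E16.5 palates and 119 TPM ± 41.6 (SD, n = 3) in newborns. The 4 antagonists summed to 50.1 TPM ± 6.61 (SD, n = 3) at E13.5 and 51.4 TPM ± 7.15 (SD, n = 3) at E14.5. They were highest at E15.5, with 55.4 TPM ± 0.574 (SD, n = 3), followed by 42.1 TPM ± 6.27 (SD, n = 3) in E16.5 palates and 40.7 TPM ± 9.34 (SD, n = 3) in newborns. The ratio of these sums was between 2.15 and 4.01 in the 15 libraries, and its stage means ranged from 2.57 at E14.5 to 3.34 at E13.5 with SDs of 0.370 to 0.662, so the stages overlapped. The trend of the sums depends on the scale: P0 relative to E13.5 was 0.701 for ligands and 0.814 for antagonists in TPM, and 0.975 and 1.18 in TMM-scaled CPM.

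**Figure D3:**
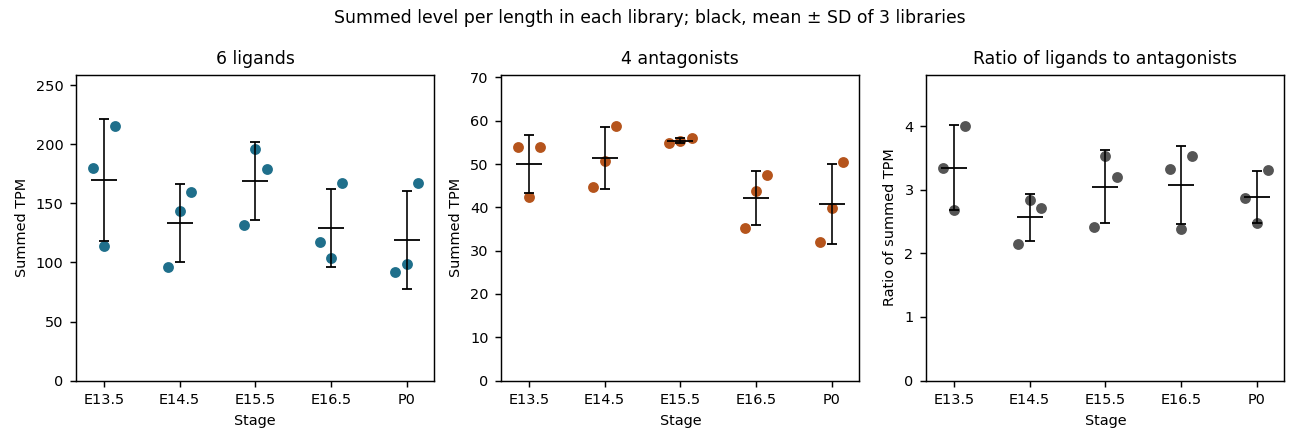
Summed TPM of the 6 ligands, summed TPM of the 4 antagonists and the ratio of these sums in every library (points), with mean and SD of 3 libraries per stage in black. The ratio stays between 2.15 and 4.01 and the stages overlap.

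Within a stage, several libraries were high or low for most of the genes at once. In the second E13.5 library all 10 were below their stage mean, with a median deviation of -0.42 on the log2 scale, and in the third all 10 were above it, with a median of 0.36. In the first E14.5 library 9 of 10 were below (median -0.26), and in the third 9 of 10 were above. In the third libraries of E15.5, E16.5 and P0, where Fst was highest, 7 of 10 were above (medians 0.07, 0.21 and 0.32). The other 3 were below their stage means: Chrd (19.9, 20.2 and 18.4 CPM), Bmp5 and Grem1. The third library thus lay above for most of the 10 genes at every stage, and the labels give the numbers no meaning. The deviation of Grem1 in the second P0 library, 1.18, was the largest of any gene in any library.

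**Figure D4:**
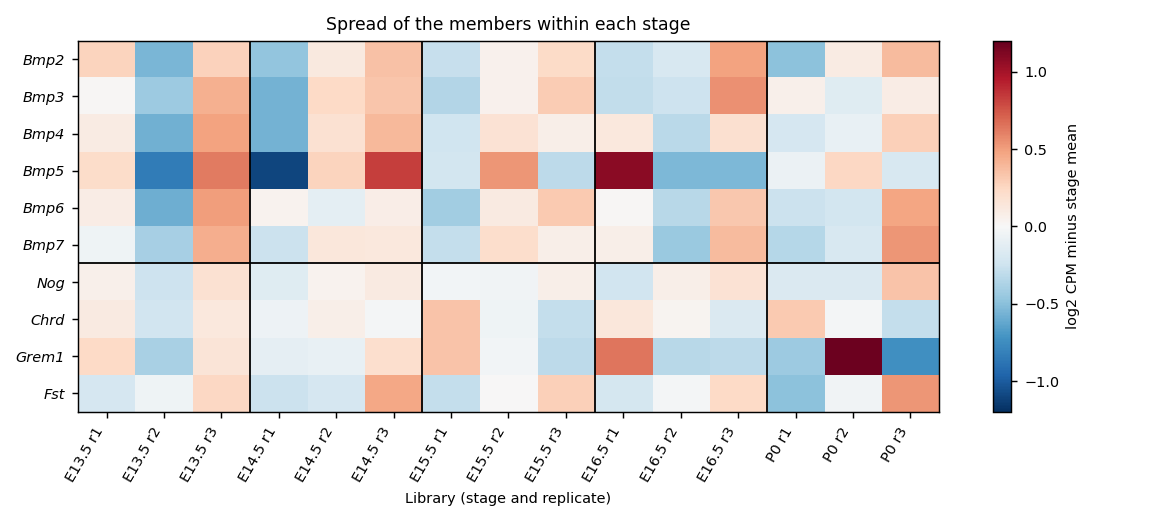
Log2 CPM minus the mean of its stage, for each gene (rows) and library (columns), in red above and blue below. The second E13.5 column is blue in all 10 rows and the third is red in all 10.

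Within a stage, some sums of cell type markers put the 3 libraries in the same order as a gene. Each of the 10 was set beside 13 marker lists, 130 pairs in all. The pairs named below are the best of these 130. In 24 pairs the order matched at 0 stages, and in 7 pairs it was the opposite at 3 stages. Since 3 libraries can stand in few orders and many of the 10 genes deviate together, the matches are not independent. The share of all tested genes with such matches was not computed. In 2 pairs the 3 libraries of a stage stood in the same order at all 5 stages: Fst with stratified oral epithelium, as above, and Bmp2 with palate mesenchyme. A further 7 pairs matched at 4 of the 5 stages, namely Bmp3, Nog and Fst with palate mesenchyme, Bmp2 with stratified oral epithelium, Bmp4 with macrophages, Bmp6 with tooth and Grem1 with endothelium. The palate mesenchyme sum was 739, 512 and 812 CPM in the E13.5 libraries, where Bmp2 was at 18.4, 10.4 and 18.5 CPM, and 187, 219 and 303 CPM in the P0 libraries, where Bmp2 was at 6.96, 10.5 and 12.8 CPM. Over stages this sum went from 512 to 812 CPM at E13.5 to 187 to 303 CPM at P0. Of 5 tooth markers, Dspp did not pass the filter, and no marker of any list was at 0 in all libraries of a stage. The part of cell makeup in the spread was not tested.

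By Pearson correlation of log2 CPM over the 15 libraries, among 13050 protein-coding genes, the nearest gene to Bmp3 was Pros1 (r = 0.96), followed by Col11a2 and Crispld2. For Bmp6 the nearest were Proser2 (r = 0.93), Zfp750 and Krt17, and for Fst Tmem123 (r = 0.92), Proser2 and Rnf13, so Proser2 was among the nearest 3 of both. Bmp5 lay nearest to Efemp1 (r = 0.91), Vegfc and Cytl1. Bmp2 lay nearest to Frk (r = 0.95), Twsg1 and Ptbp1, and Twsg1 encodes a secreted protein that binds BMPs and chordin. Nog lay nearest to Inhba (r = 0.90), Arhgap42 and Frem1, and Inhba encodes the activin A subunit. Bmp4 lay nearest to Tlcd2 (r = 0.93), Bmp7 to Ajuba (r = 0.90), Chrd to Sorcs2 (r = 0.87) and Grem1 to Hsd17b4 (r = 0.89). By Spearman correlation Nog kept 0 of its 3 nearest genes, so not Inhba, and Bmp2 kept 1. These values are descriptions over libraries that share stage and tissue makeup.

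The rest of the pathway was read from 7 lists of 57 genes, of which 54 were tested. In P0 against E13.5, 12 were higher and 15 lower, and in E15.5 against E14.5, 6 were higher and 6 lower. The shares called were 50% and 22.2%, beside 56.6% and 26.1% of all genes.

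Among the receptors, more fell than rose. Of 10 receptors and co-receptors, 6 were lower at P0 than at E13.5 (Bmpr1a, Bmpr2, Acvr2a, Acvr2b, Rgma and Rgmb) and 2 were higher (Acvrl1 and Eng), against 26.8% of all genes lower and 29.8% higher. The median log2 fold change was -0.75, against 0.03 for all genes. Acvr2b, a type II receptor shared by BMPs and activins, went from 30.1, 38.2 and 19.8 CPM at E13.5 to 4.13, 9.12 and 6.79 CPM at P0 (log2 fold change -2.14, SE 0.38, adjusted p = 4.62e-04). Most of that difference lay between E14.5, at 42.6, 28.1 and 21 CPM, and E15.5, at 8.68, 11.1 and 8.89 CPM (-1.68, SE 0.37, adjusted p = 0.00728). Neuron markers put the libraries in the same order as Acvr2b at E13.5, E14.5 and E16.5, and not at E15.5 and P0. They summed to 1088 to 2536 CPM at E14.5 and 474 to 877 CPM at E15.5. The part of neural tissue in the receptor falls was not tested. Acvr2a, a close relative of Acvr2b, fell by 1.26 on the log2 scale between E13.5 and P0 (adjusted p = 0.00151), and by 0.98 between E14.5 and E15.5 (adjusted p = 0.0176). Rgma and Rgmb, cell surface co-receptors for BMPs, were also lower at E15.5 than at E14.5, with log2 fold changes of -1.38 (adjusted p = 0.00133) and -1.11 (adjusted p = 0.0171). Their E14.5 libraries stood at 203, 159.8 and 123 CPM for Rgma and at 247, 184 and 145 CPM for Rgmb, and in both the first library, rich in neuron markers, was the highest. Without it, Rgma and Acvr2b still passed at E15.5 against E14.5, Acvr2b at an adjusted p of 0.0400. Rgmb was then at -0.90 (adjusted p = 0.0863) and Acvr2a at -0.76 (adjusted p = 0.0919), and neither passed. Both of those calls were also lost without the second or the third E15.5 library. Rgmb at P0 passed in 8 of 15 fits without 1 library, with a highest adjusted p of 0.203. Without 1 library in turn, Bmpr2 passed in 12 and Acvrl1 in 13 of 15 fits, with highest adjusted p of 0.0795 and 0.0773. Bmpr2 was lost without the first E13.5, the first P0 or the third P0 library, and Acvrl1 without the second E13.5 or the first P0 library. Acvrl1 and Eng, receptors found mainly on endothelial cells, rose by log2 fold changes of 0.77 and 0.99, and endothelial markers summed to 237 to 314 CPM at E13.5 and 325 to 550.2 CPM at P0. The part of vessels in that rise was not tested.

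Of 4 SMADs that carry the BMP signal, Smad1, Smad5 and Smad4 were lower at P0 than at E13.5, against 26.8% of all genes called lower. Smad9 gave -0.44 (adjusted p = 0.244). Smad5 went from 239, 215 and 231 CPM at E13.5 to 92.2, 119 and 119.9 CPM at P0, with the E14.5, E15.5 and E16.5 means between (log2 fold change -1.05, SE 0.13, adjusted p = 4.25e-05). Smad4 fell by 0.71 and Smad1 by 0.42 on the log2 scale, and Smad1 passed in 11 of 15 fits without 1 library (highest adjusted p 0.106), being lost without the first or second E13.5 library, the first P0 library or the third P0 library.

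Of 10 direct targets and feedback inhibitors of the pathway, 2 passed, against 56.6% of all genes. Bambi was higher and Id2 lower at P0 than at E13.5, passing in 10 and 11 of 15 fits without 1 library, and 8 did not pass. Id1 and Id3, widely used readouts of BMP signalling, gave log2 fold changes of 0.39 (95% interval -0.09 to 0.88) and -0.01 (95% interval -0.52 to 0.49). Id4 was lower at E15.5 than at E14.5 (-1.28, SE 0.44, adjusted p = 0.0473), its first E14.5 library being the highest at 199 CPM, and it passed in 4 of 15 fits without 1 library, with the highest adjusted p, 0.196, without that one. Msx1, a BMP target that also stands in the palate mesenchyme marker list, gave -1.57 with a wide interval from -3.44 to 0.30.

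Processing enzymes and other binding proteins held some of the largest rises. Pcsk6, a convertase that cleaves proproteins of this superfamily, went from 24.8, 27.8 and 38.4 CPM at E14.5 to 85.8, 107 and 123 CPM at E15.5 (log2 fold change 1.79, SE 0.25, adjusted p = 8.70e-04) and stayed between 77.5 and 123 CPM afterwards. Furin, which cleaves the same kind of precursor, rose by 0.91 between E13.5 and P0 (adjusted p = 6.26e-04). Tll1, a metalloprotease that cuts chordin, fell by 1.16 on the log2 scale (adjusted p = 0.00105), and Bmp1, the main enzyme of that kind, gave -0.01 (adjusted p = 0.954). Fstl3, a relative of follistatin, stood at 2.36, 2.00 and 3.21 CPM at E13.5, at 7.08, 7.13 and 6.97 CPM at E15.5 and at 10.4, 9.60 and 10.9 CPM at P0 (P0 against E13.5 2.03, SE 0.21, adjusted p = 1.26e-05). Sost, which encodes sclerostin, the Wnt antagonist of osteocytes that the series' aims name, had its highest values at E16.5 (4.34, 3.54 and 3.72 CPM). It was higher at E15.5 than at E14.5 without overlap (1.72, SE 0.36, adjusted p = 0.00612), in 15 of 15 fits without 1 library. It was also higher at P0 than at E13.5 (1.25, SE 0.37, adjusted p = 0.0121). Those libraries overlapped, at 1.11, 1.28 and 0.610 CPM at P0 and 0.272, 0.282 and 0.713 CPM at E13.5. The P0 call was not held in every fit. That call was lost without the first E13.5 library (adjusted p = 0.0552) and without the second. Nbl1 was also higher and Bmper lower, in 9 and 11 of 15 fits without 1 library. Of the 12 other antagonists, 4 thus passed in P0 against E13.5 and 8 did not, and of the 6 proteases 3 passed (Furin, Pcsk6 and Tll1). Over all tested genes 56.6% passed in that comparison.

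Of the other ligands, Bmp8a made the largest change of the pathway. It measured 0.143, 0.0563 and 0.149 CPM at E13.5, 2.24, 2.12 and 2.79 CPM at E15.5 and 6.52, 4.63 and 4.27 CPM at P0 (P0 against E13.5 5.45, SE 0.40, adjusted p = 2.66e-06). Bmp8a at E13.5 was near the floor of 3 counts, 0.0439 CPM in the second library, so the size of its fold change is uncertain. Its near-identical neighbour Bmp8b had its highest values at E15.5 (1.69, 3.71 and 3.04 CPM) and measured 0.666, 1.28 and 1.35 CPM at P0 (P0 against E13.5 -0.30, adjusted p = 0.440). Fragments shared by such copies may be split or lost in counting, and both values are uncertain for that reason. The Bmp8b rise from E14.5 to E15.5 (1.10, adjusted p = 0.0235) passed in 11 of 15 fits without 1 library. Gdf7 was lower at P0 (-2.04, adjusted p = 0.0440, passing in 6 of 15 fits), and Bmp15, at 0.222, 0.640 and 0.261 CPM at P0, was higher (1.74, adjusted p = 0.0141) but not without the second P0 library (adjusted p = 0.109) or the first E13.5 library (0.0603). Bmp15 measured 0.0717, 0.0986 and 0.163 CPM at E13.5, also near that floor. Gdf10 gave -0.50 (adjusted p = 0.302). Bmp10, Gdf2 and Gdf3 had at most 3, 8 and 6 counts in any library and were not tested.

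Among the activins and other ligands that follistatin binds, 2 were higher at P0 than at E13.5 (Inhbb and Mstn) and 2 lower (Inhba and Gdf11), 4 of 5 tested against 56.6% of all genes called. Inhba went from 27.7, 15.2 and 25.5 CPM to 3.69, 4.45 and 10.1 CPM (-1.92, SE 0.56, adjusted p = 0.0109, and 0.0502 without the first P0 library), while Inhbb, which encodes the other activin subunit, went from 4.30, 5.40 and 3.62 CPM to 10, 15.4 and 7.92 CPM (1.33, SE 0.30, adjusted p = 0.00252). Gdf11 fell by 1.30 on the log2 scale (adjusted p = 7.79e-04). Mstn, the muscle growth inhibitor myostatin, rose by 2.07 (adjusted p = 0.0368) in libraries whose skeletal muscle markers summed to 4291 to 24455 CPM at P0 and 181 to 331 CPM at E13.5, and it passed in 10 of 15 fits without 1 library. The part of muscle in that rise was not tested.

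**Figure D5:**
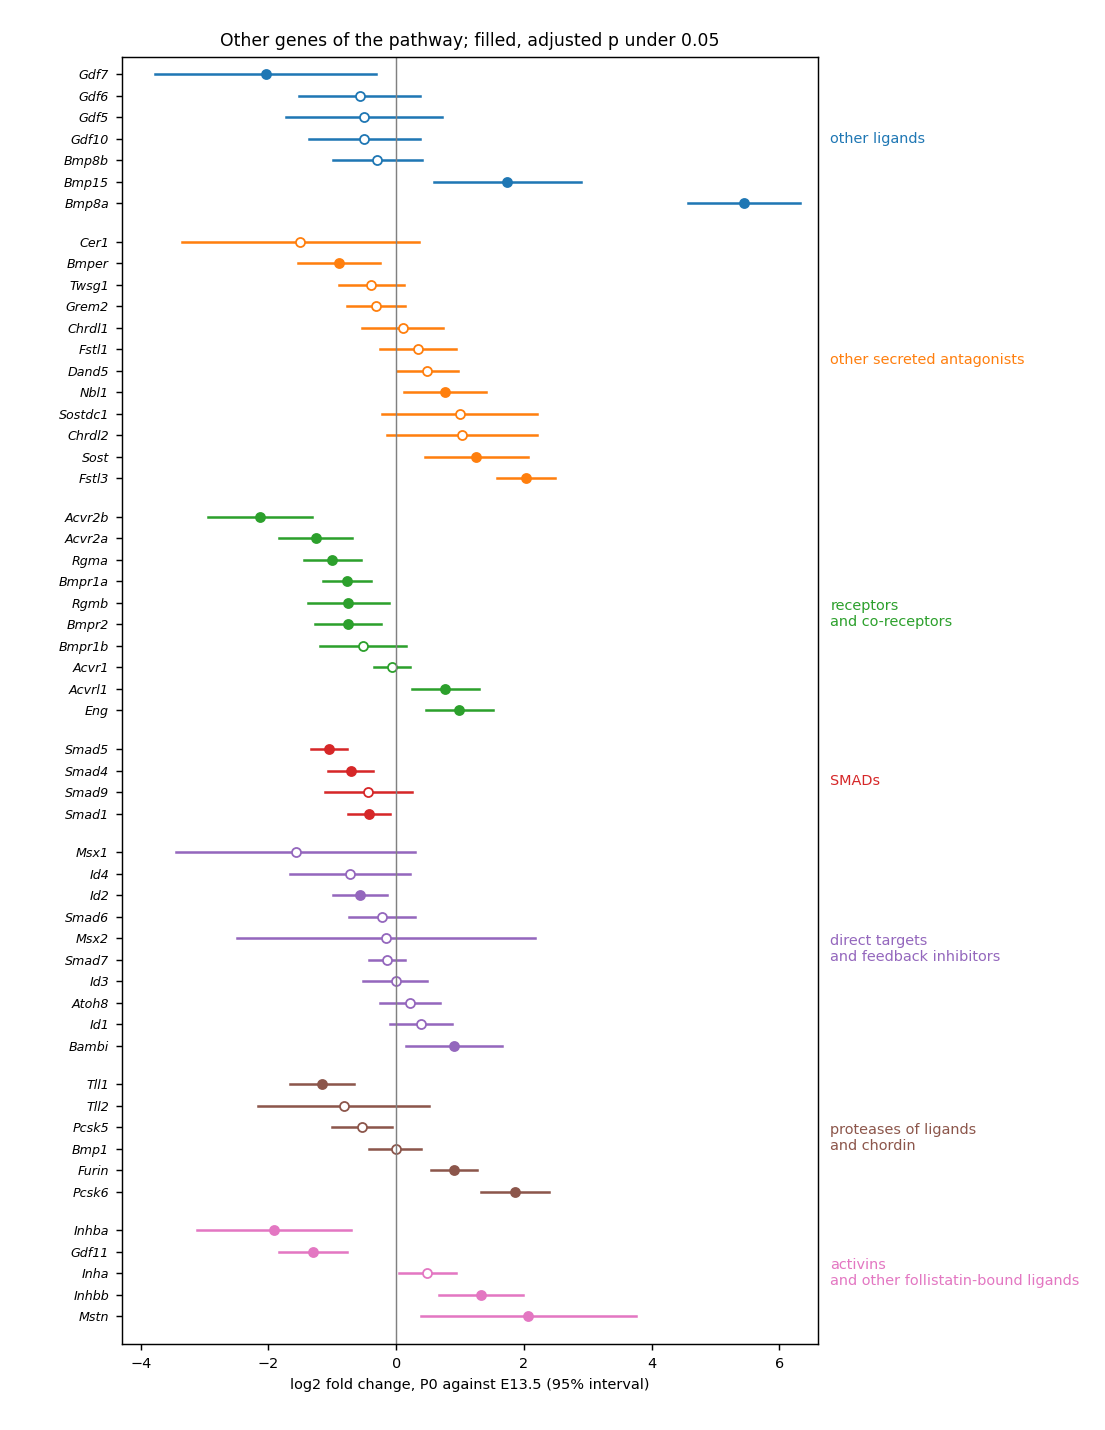
Log2 fold change of the 54 other pathway genes tested, P0 against E13.5, with 95% intervals, grouped by list, filled where the adjusted p was under 0.05. Most filled receptors and all filled SMADs lie left of 0, and Bmp8a lies farthest right at 5.45.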

How the data were processed

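Counts per gene were deposited as 1 table of 15 libraries, made by the authors with featureCounts (Subread 2.0.1) on an annotation named GENCODE M18, on the reverse strand, per the file headers. The submitters' processing notes name the mm10 build and cutadapt 3.4, HISAT2 2.2.1 and SAMtools 1.12. Symbols came from GENCODE M21, where 97.5% of genes kept an identical position. From the deposited counts, 22151 genes passed edgeR's filterByExpr by stage (minimum count 10), were TMM-scaled, and edgeR 4.0.16 fitted 1 coefficient per stage to all 15 libraries together. Contrasts and the 5 stages were tested with the quasi-likelihood F test, adjusted by Benjamini-Hochberg over all tested genes (threshold 0.05). Standard errors and intervals derive from the F statistic. Log2 CPM used a prior count of 2. A log2 fold change is that of the stage coefficients. The fit was tested on simulated data.

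Depth was 21470759 to 69019565 counts, and the floor of 3 counts covers counting error only. The members and lists were chosen with earlier results of these data known. Of each list, genes were named that passed with a log2 change of 1 or more either way and no overlap of libraries, at most 4, and for each of the 10 genes the 3 with the highest Pearson r among genes of at least 5 CPM. Other genes named were the remaining ones called and, chosen after their values were seen, Smad9, Id1, Id3, Msx1, Bmp1 and Gdf10. The alternatives were other scalings, DESeq2 1.42.0, other filters, thinning to the smallest total, a replicate block, the contrast's own libraries and leaving out each library.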

Additional observations from a re-analysis of the deposited data

How the results depend on the processing

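Of the fold changes of the 10 genes, 375 kept direction and side of the threshold under the alternatives that kept all libraries or only those of the contrast, 18 changed sign, 5 came to pass and 2 no longer passed. With 1 library left out the numbers were 693, 40, 7 and 10. The cause was not tested. The pathway genes' alternatives were chosen after seeing the data. There were 3 libraries a stage, and 1 P0 library held 21470759 counts. A gene that did not pass may still differ by an amount within its interval.

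Of all genes, 2 changed in E14.5 against E13.5, but 1000 by DESeq2, 6 with no filter, 1 at a mean of at least 1 CPM and 0 in the 6 libraries of the contrast. In E16.5 against E15.5 the count was 312, but 2094 by DESeq2 and 0 in the 6 libraries. In P0 against E16.5 it was 78, but 663 by DESeq2, 25 with no filter and 0 in the 6 libraries. Across the 5 stages 1 of the 10 genes passed, but 2 by DESeq2, 2 at a mean of at least 1 CPM and 2 after thinning, with Fst added each time. With upper-quartile scaling, the middle fold change over all genes in E15.5 against E14.5 was 0.16 on the log2 scale in place of 0.03, and the share of calls that were higher 63% in place of 48.6%. In P0 against E16.5 that share went from 53.8% to 67.9%. In E14.5 against E13.5 it was 100% of 2 calls and 67.2% by DESeq2.

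Correlations of the deviations of same-numbered libraries ran from -0.303 to 0.548 over 30 pairs. Of these 9 were over 0.1, 6 of them among the 10 pairs of libraries numbered 3. Since not every pair was over 0.1 and the labels give the numbers no meaning, the numbers were not taken to pair the samples. With the replicate block, 135 genes changed in E14.5 against E13.5 and 35 in P0 against E16.5. Of the 10 genes, the block gave 3 across the 5 stages, 1 in E15.5 against E14.5 (Fst, adjusted p = 0.0168 in edgeR) and 6 in P0 against E13.5, with Bmp2 (0.0340), Bmp7 (0.0219) and Nog (0.0321) added. Across the 5 stages the block added Bmp6 (0.0357) and Fst (0.00174).

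Leaving out 1 library in turn gave 0 to 28 genes for E14.5 against E13.5, 2320 (without the first E14.5 library) to 6035 for E15.5 against E14.5, 0 to 969 for E16.5 against E15.5 and 10 to 216 for P0 against E16.5. Of the 10 genes, 1 (without the first E13.5 library) to 4 (without the second) passed in P0 against E13.5 and 1 to 2 across the 5 stages.

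With all libraries of a contrast kept, these log2 fold changes changed sign. For Bmp4 in P0 against E13.5 the value was 0.02 with DESeq2 size factors, by DESeq2, after thinning and in the 6 libraries, 0.06 with upper-quartile scaling, 0.07 at a mean of at least 1 CPM and 0.01 with the block. Nog in E15.5 against E14.5 gave 0.03 with upper-quartile scaling and 0.08 after thinning, and in E16.5 against E15.5 0.00 with DESeq2 size factors and DESeq2. Chrd in P0 against E16.5 gave 0.00 with DESeq2 size factors and DESeq2, 0.02 at a mean of at least 1 CPM, and 0.03 with upper-quartile scaling, after thinning and in the 6 libraries. Grem1 in E14.5 against E13.5 gave -0.02 with upper-quartile scaling.

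Without 1 library in turn, the ranges of several log2 fold changes crossed 0. E14.5 against E13.5 ran from -0.10 to 0.33 for Bmp3, -0.61 to 0.23 for Bmp5, -0.18 to 0.03 for Nog and -0.11 to 0.18 for Grem1. E15.5 against E14.5 ran from -0.33 to 0.51 for Bmp5, -0.02 to 0.23 for Bmp7, -0.05 to 0.42 for Bmp15 and -0.06 to 0.26 for Inhba. E16.5 against E15.5 ran from -0.21 to 0.28 for Bmp3, -0.14 to 0.20 for Bmp6, -0.09 to 0.09 for Nog, -0.25 to 0.07 for Chrd and -0.59 to 0.02 for Grem1. P0 against E16.5 ran from -0.12 to 0.37 for Bmp2, -0.77 to 0.27 for Bmp5, -0.23 to 0.23 for Bmp6, -0.42 to 0.10 for Bmp7, -0.17 to 0.12 for Chrd, -0.50 to 0.78 for Grem1 and -0.10 to 0.42 for Fst. P0 against E13.5 ran from -0.25 to 0.25 for Bmp4 and -0.45 to 0.01 for Bmp8b.

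By Spearman in place of Pearson correlation, 8 of the 10 genes shared at most 1 of their 3 nearest genes.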
